A study of Mus musculus with 6 samples.

Results

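Open chromatin in the first introns of genes, away from the start site, was compared between mouse livers that overexpressed Dyrk1b and control livers. A peak was taken where the authors' annotation placed it in intron 1 of a transcript, where the gene so named was also the gene from whose start the distance was measured, and where that distance was above 3 kb. The rule used position only and no read count. It took 3480 of the 22412 peaks in the table, or 15.5%, and 62.0% of the 5614 peaks in any first intron.

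The assay was ATAC-seq on 6 liver samples, where a transposase enters nuclei and cuts and tags the DNA it can reach. The 3 controls are labelled Ad-EGFP, for a green fluorescent protein, and the other 3 Ad-Dyrk1b, with overexpression of Dyrk1b, a protein kinase, as their genotype. Ad is the usual prefix of an adenoviral vector, which the labels do not spell out. The title of the series ties hepatic Dyrk1b to glucose homeostasis and to Wbp2, a coactivator. Strain, age, sex, diet, dose and time of treatment are not given in the labels. Nor do they say whether the 3 samples of a group came from separate mice, so a p-value covers the spread among 6 samples, some of which may be technical. Both groups carry the prefix and no untreated liver was compared, so an effect that both share cannot be seen. The tissue was whole liver, a mixture of cell types.

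As background, an intron is transcribed with its gene and removed from the RNA, and its DNA can hold enhancers, short elements that bind transcription factors and act on a promoter from a distance. First introns are on average the longest introns of a gene and are rich in such elements. Their peaks can also mark the start of a shorter transcript of the same gene. In liver, factors such as HNF4A, the FOXA proteins and C/EBP proteins bind many intronic elements of metabolic genes, and an adenovirus given to a mouse infects mainly hepatocytes.

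To place an intronic peak beside the start of its gene, the start regions of 3 genes are shown, each with a first intron peak among those of lowest p and a separate peak measured at its start. They are RefSeq sequences of GRCm38.p6, 250 bases before to 50 after the annotated start, 5′ to 3′ on the gene's strand, at chr11:98863348-98863647 on the plus strand for Wipf2, chr5:134639360-134639659 on the minus strand for Eif4h and chr4:100095541-100095840 on the plus strand for Ror1. Capitals mark every match on either strand to 4 motifs, the GC box GGGCGG, the CCAAT box CCAAT, the TATA box TATAAA and the E-box CACGTG.
Wipf2: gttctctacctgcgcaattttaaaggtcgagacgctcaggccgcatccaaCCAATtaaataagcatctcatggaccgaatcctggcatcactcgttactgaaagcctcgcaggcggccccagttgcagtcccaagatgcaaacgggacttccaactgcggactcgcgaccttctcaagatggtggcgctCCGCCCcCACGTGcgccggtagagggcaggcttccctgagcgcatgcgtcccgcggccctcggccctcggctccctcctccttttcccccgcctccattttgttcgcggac
Eif4h: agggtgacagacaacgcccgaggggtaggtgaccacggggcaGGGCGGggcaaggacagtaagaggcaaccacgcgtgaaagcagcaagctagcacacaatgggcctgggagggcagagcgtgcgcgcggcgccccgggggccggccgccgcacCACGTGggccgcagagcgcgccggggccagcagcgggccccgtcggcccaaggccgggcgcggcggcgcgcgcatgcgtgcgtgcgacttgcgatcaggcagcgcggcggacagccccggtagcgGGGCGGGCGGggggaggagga
Ror1: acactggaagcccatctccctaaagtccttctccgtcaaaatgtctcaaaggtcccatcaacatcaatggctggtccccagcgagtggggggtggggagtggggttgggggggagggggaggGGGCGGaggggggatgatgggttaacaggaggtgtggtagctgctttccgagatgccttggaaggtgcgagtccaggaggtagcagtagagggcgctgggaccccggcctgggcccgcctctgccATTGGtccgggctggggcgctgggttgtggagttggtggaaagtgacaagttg
Of 32851 RefSeq start regions of the same length, 35.7% held the GC box, 37.4% the CCAAT box, 13.6% the TATA box and 7.15% the E-box. Wipf2 held 1 GC box, 1 CCAAT box and 1 E-box, Eif4h held 3 GC boxes, of which a pair overlap, and 1 E-box, and Ror1 held 1 GC box and 1 CCAAT box. None of these 3 held the TATA box. Their GC contents were 60.7%, 76.0% and 62.3%, against a median of 52.7%. A match is a description of letters and not a bound site. The deposited peak positions follow a build that is not that of these sequences, so whether the starts are the same bases was not tested, and the sequence under the intronic peaks themselves is not shown.

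The first intron peaks lay in long genes. Their genes had a median length of 76.2 kb, against 21.5 kb for peaks in a first intron within 3 kb and 40.3 kb for peaks in a later intron within 50 kb of the start. All 3480 were downstream of the start they were assigned to, at a median of 17.8 kb, with quartiles at 8.70 and 39.3 kb and the farthest at 2530 kb. The median peak was 410 bp long and lay 28.1% of the way into its gene, in a transcript with 7 introns. They fell in 2349 genes on 20 chromosomes. A single peak was found in 1675 of these genes, 2 or more in 674 and 5 or more in 55. The annotation gave a symbol to 2925 of the peaks, for 1929 symbols, and none to the other 555. The requirement that both gene columns match removed no peak.

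The label was checked against the other starts in the table. For 137 of the 3480 peaks the distance had been measured from a start other than that of the transcript whose intron they lie in, and 46 peaks were within 3 kb of that transcript's own start. Among the 15990 starts listed in the table, another one lay within 1 kb of 95 of the peaks, and for 68 of these it belonged to the same gene. The listed starts are only those of transcripts assigned to a peak, so the check could not find any other start. These 95 peaks had a median level of 42.7 CPM, against 30.5 CPM for the other 3317 tested, and their median log2 difference between the groups was -0.13 against 0.06. CPM here are reads of a peak scaled to the reads that its library holds in all peaks, after normalization by the trimmed mean of M-values (TMM). At the limit itself, the nearest peaks outside 3 kb were those of Pdzrn3 at 3014 bp and AI661453 at 3016 bp, with log2 differences of -0.35 and -0.16 (0.02 with the RPKM totals for AI661453). The nearest peaks inside it were those of Gm17268 at 2997 bp and Thrap3 at 2993 bp, with 0.16 and -0.19.

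Few of the reads lay in peaks. Reads in peaks came to 762633 to 855787 in controls and 768418 to 1267934 in Dyrk1b libraries, 1.89% to 2.22% and 1.67% to 2.62% of the totals behind the deposited RPKM values. The low-count filter kept 3412 of the 3480 first intron peaks and left out 68, and 59 of the 3480 are listed with 1 read in at least 1 library. Of 10 hepatocyte marker genes, 5 had a peak anywhere in the table, 7 peaks in all, and their summed level was 279 to 435 CPM in controls and 313 to 336 CPM in Dyrk1b libraries. Cps1, Cyp2e1, Serpina1a, Tat and Ttr, also on that list, had none. Of 41 marker genes of endothelial cells, macrophages, stellate cells, cholangiocytes, lymphocytes and neutrophils, 10 had a peak, 14 peaks in all, with a summed level of 432 to 488 CPM in controls and 495 to 551 CPM with Dyrk1b. The groups did not overlap in that sum, 11 of the 14 peaks had positive log2 differences (median 0.48), and edgeR called 0 of them. The lists within the sum differed. Macrophage markers overlapped, at 225 to 285 CPM in controls and 230 to 250 CPM with Dyrk1b, with 3 of 5 peaks positive. Groups were apart for endothelial markers (110 to 121 against 136 to 163 CPM) and for lymphocyte and neutrophil markers (63.3 to 80.2 against 104 to 121 CPM). They were also apart for the 1 stellate cell peak (11.7 to 15.8 against 20.7 to 23.9 CPM). No cholangiocyte marker had a peak. The part of these markers in the differences below was not tested.

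The strongest first intron peaks included 2 at genes of drug metabolism, Ugt1a10 and Por. In CPM per kb of peak, the scale on which peaks of different length can be compared, the 6 genes with the highest total level had 1049 at Sfi1, a centrosomal protein, 371 at Trpm8, a cold-sensing ion channel, and 270.4 at Ugt1a10, of the UGT1A cluster that conjugates bilirubin and drugs. They had 240.0 at Cldn34d, a claudin, 158 at Por, the electron donor of microsomal cytochrome P450 enzymes, and 96.8 at Zfp992, a zinc finger gene. The median over all first intron peaks was 74.7 CPM per kb. The Trpm8 peak (chromosome 1, 88214986 to 88216213) and the Ugt1a10 peak (chromosome 1, 88140255 to 88142025) are neighbours on 1 chromosome. The Sfi1 peak, given as 59.4 kb from the assigned start, lay 117 bp from another listed start of Sfi1. Whether reads that align to more than 1 place add to the level of this or the other strongest peaks was not tested. Por held 166, 146 and 168 CPM in controls 1, 2 and 3 and 165, 133 and 156 CPM in Dyrk1b libraries 1, 2 and 3, and the groups overlapped.

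As a class these peaks had a lower median level than those at starts. Per kb of peak it was 74.7 CPM, against 81.4 CPM for first intron peaks within 3 kb, 75.2 CPM for later intron peaks within 50 kb and 84.7 CPM for promoter and 5′ UTR peaks. Per peak, which also counts length, it was 30.7 CPM against 41.1, 31.3 and 48.9 CPM. They took 12.5%, 12.1% and 11.9% of the reads in peaks in controls 1, 2 and 3 and 12.1%, 12.3% and 12.7% in Dyrk1b libraries 1, 2 and 3. The groups overlapped, at 12.2% ± 0.310 and 12.4% ± 0.304 (SD, n = 3 each). With the strongest peak of the whole table left out of the total, a choice made after seeing the data, the shares were 12.7%, 12.6% and 12.4% in controls and 12.8%, 12.8% and 13.1% in Dyrk1b libraries. The groups were then apart, by 0.310 percentage points between the means, but the highest control (12.74%) and the lowest Dyrk1b library (12.75%) nearly met. The median log2 difference of the 3412 tested peaks was 0.06 and 54.5% of them were positive. Over all 22051 tested peaks the median was 0.005 and 50.5% were positive. Later intron peaks had a median of 0.05 within 50 kb (54.1% positive) and 0.12 beyond (59.5%), first intron peaks within 3 kb -0.06 (44.7%) and promoter and 5′ UTR peaks -0.08 (42.0%). Differences between classes were not tested. In bulk tissue, fewer cells with an open site and less cutting of the site in each cell cannot be told apart.

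**Figure D1:**
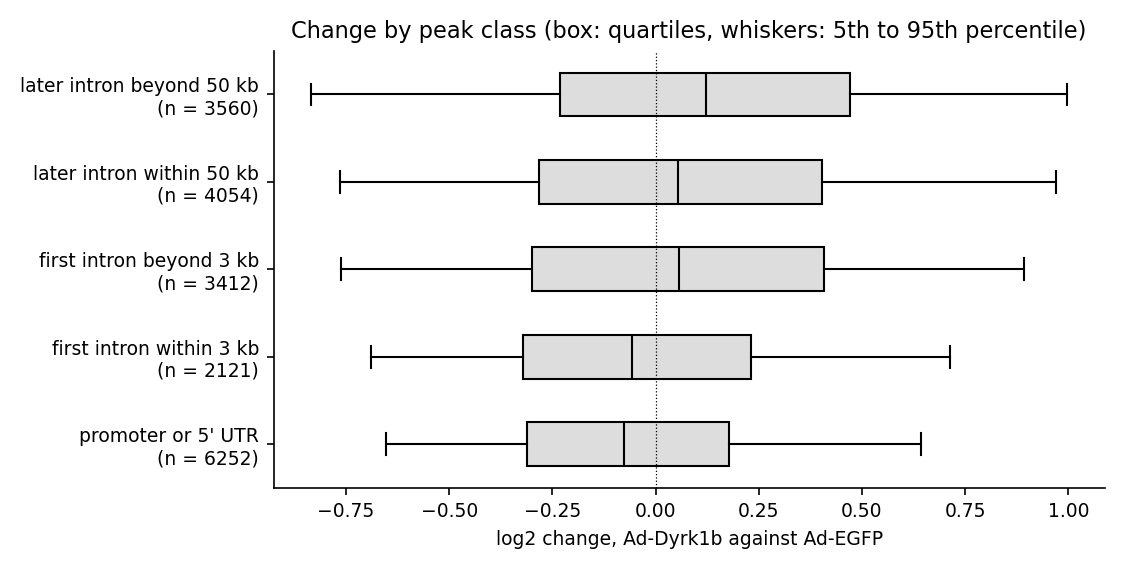
Log2 difference in accessibility between Ad-Dyrk1b and Ad-EGFP livers for tested peaks, by peak class. Boxes are quartiles with the median line and whiskers the 5th and 95th percentiles; first intron peaks beyond 3 kb have a median of 0.06 and overlap every other class over most of their range.

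Medians by distance stayed between 0.01 and 0.08. They were 0.01 for 305 tested peaks at 3 to 5 kb, 0.05 for 708 at 5 to 10 kb, 0.06 for 854 at 10 to 20 kb, 0.08 for 938 at 20 to 50 kb, 0.05 for 388 at 50 to 100 kb and 0.02 for 219 beyond 100 kb. Levels in the same order of distance were 33.1, 33.2, 30.4, 29.8, 30.6 and 25.2 CPM.

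With Dyrk1b, edgeR called 0 of the 3412 tested first intron peaks higher and 1 lower, where over all peaks it called 0.00907% higher and 0.0227% lower. The peak lay in Hsp90aa1, the stress-inducible cytosolic HSP90 chaperone that folds kinases and steroid receptors. The peak (chromosome 12, 110662603 to 110663392, intron 1 of 3, 6.17 kb from the start) held 87.9, 82.6 and 98.1 CPM in controls 1, 2 and 3 and 38.5, 30.9 and 36.1 CPM in Dyrk1b libraries 1, 2 and 3. Every control lay above every Dyrk1b library. Accessibility fell from 89.6 ± 7.89 to 35.2 ± 3.89 CPM (SD, n = 3 each), a log2 change of -1.35 ± 0.25 (SE), with an adjusted p of 0.00981 by edgeR, adjusted over the 22051 peaks tested. The direction held without any 1 library (-1.40 to -1.26), and the call was lost without control 3 (-1.28, adjusted p = 0.0881), without Dyrk1b 2 (-1.26, 0.0519) or without Dyrk1b 3 (-1.37, 0.0728). It was also lost when libraries were scaled to the totals behind the RPKM values (-1.19, 0.323), a scaling that moved the median of all peaks to 0.17. In the authors' deposited table its log2 ratio is -1.20 and its FDR 0.272. It was the only Hsp90aa1 peak in the table, and lay 76.1% of the way into an annotated gene of 8100 bp, on its minus strand. The nearest other listed start was 41380.5 bp away and belonged to another gene. Starts of Hsp90aa1 transcripts that no peak was assigned to are not listed. Whether the peak marks the start of a shorter transcript was not tested.

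No other tested first intron peak passed by edgeR. At an unadjusted p under 0.05, 263 first intron peaks were higher (7.71%) and 242 lower (7.09%), against 6.44% and 7.72% of all peaks. The 3 libraries of each group did not overlap at 386 first intron peaks higher with Dyrk1b (11.3%) and at 328 lower (9.61%), against 9.53% and 9.97% of all peaks. Each of these shares lay near that of the whole table. limma-trend called 0 higher and 1 lower. DESeq2 called 0 higher and 3 lower among the 466 first intron peaks to which it gave an adjusted p, Hsp90aa1 (0.0011), Svil (0.0494) and Man2a1 (0.0494), and over all peaks it called 0.329% of those with an adjusted p lower. By the values the authors deposited in their table, 0 of the 3480 have an FDR under 0.05, and the lowest FDR is 0.272.

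Next by p came peaks with higher values under Dyrk1b and groups apart, none of them called. Each value is that of 1 peak, and Ror1, with 3 positive and 3 negative first intron peaks, Trio, with 4 and 1, and Osbpl8, with 1 and 1, hold others of the opposite sign. Wipf2 encodes a WASP-interacting protein that promotes actin assembly. Its peak (chromosome 11, 98764698 to 98765073, 10.4 kb from the start) held 17.6, 15.8 and 9.41 CPM in controls and 46.4, 40.8 and 38.4 CPM in Dyrk1b libraries. Each Dyrk1b library was above each control by more than 2-fold, and the log2 difference was 1.52 ± 0.37 (adjusted p = 0.0966). Trio, which encodes an exchange factor that activates small GTPases, held 23.4, 21.9 and 14.8 CPM in controls and 46.4, 52.9 and 39.2 CPM with Dyrk1b at 72.1 kb. The log2 difference there was 1.18 ± 0.33 (adjusted p = 0.132). Epb41l1, of the membrane skeleton, had 29.2 ± 9.06 CPM against 59.7 ± 6.15 CPM. At Ror1, a receptor for Wnt5a, the peak 30.9 kb into the gene (chromosome 4, 99983678 to 99984063) held 7.03, 4.86 and 13.4 CPM in controls and 42.5, 28.7 and 26.1 CPM with Dyrk1b. Every control was at 13.4 CPM or lower and every Dyrk1b library at 26.1 CPM or higher, and the log2 difference was 1.92 ± 0.48 (adjusted p = 0.105). Smo, which carries the Hedgehog signal across the membrane, had 3.52, 8.50 and 5.38 CPM in controls and 43.8, 16.5 and 13.1 CPM with Dyrk1b. Here Dyrk1b library 1 was far above the other two of its group, and the log2 difference of 2.01 became 1.33 without it.

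The other 5 in the same direction began with Aqp9, the channel through which hepatocytes take up glycerol, which held 11.7, 7.29 and 8.07 CPM in controls and 19.9, 30.9 and 32.2 CPM with Dyrk1b at 6.41 kb (chromosome 9, 71064015 to 71064302). No control reached the lowest Dyrk1b library, and the log2 difference was 1.61 ± 0.49 (adjusted p = 0.155). Osbpl8, a lipid transfer protein of the endoplasmic reticulum, had 10.4 ± 5.03 CPM against 30.1 ± 2.20 CPM, B4galnt3, a glycosyltransferase, had 10.9 ± 3.39 CPM against 31.4 ± 4.44 CPM, and Mrpl33, of the large mitochondrial ribosomal subunit, had 13.4 ± 8.07 CPM against 36.4 ± 9.75 CPM. Ctdspl, a phosphatase, had 8.97 ± 3.41 CPM against 29.8 ± 9.12 CPM. Adjusted p for these 5 genes lay between 0.126 and 0.158, all above the threshold. Among the peaks named in this direction, those of Smo, Aqp9, Ctdspl, Osbpl8, Ror1 and B4galnt3 had mean levels of 15.1 to 21.1 CPM. These levels are in the lowest quintile of all tested peaks, where the median log2 difference was 0.35. With loess offsets, a normalization that depends on the level, the differences of these peaks were 1.29 to 1.72, against 1.52 to 2.01 with TMM.

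The peaks with lower values under Dyrk1b, after Hsp90aa1, were likewise single peaks. First intron peaks of both signs were found in Svil (2 positive and 4 negative), Prkag2 (2 and 3), Cmip (3 and 4) and Slc16a7 (1 and 2). Svil encodes supervillin, a protein that binds actin and myosin. Its peak 73.9 kb into the gene (chromosome 18, 4994136 to 4994705) held 65.7, 69.2 and 84.7 CPM in controls and 45.1, 29.8 and 25.3 CPM with Dyrk1b, a log2 difference of -1.16 ± 0.27 (adjusted p = 0.0966 by edgeR). The groups did not overlap, and without Dyrk1b 1, the highest of its group, edgeR called the peak (-1.41, 0.0430). Man2a1, the Golgi mannosidase that trims N-glycans, held 83.2, 86.2 and 102 CPM in controls and 41.1, 54.0 and 41.5 CPM with Dyrk1b (chromosome 17, 64924493 to 64925235). All Dyrk1b libraries were below all controls there, with a log2 difference of -0.99 ± 0.24 (adjusted p = 0.0966). Hs6st1, which adds sulfate to heparan sulfate, had 95.3 ± 5.89 CPM against 53.3 ± 5.95 CPM. In Eif4h, a cofactor of the helicase that unwinds mRNA for translation, the peak at 9.75 kb (chromosome 5, 134658421 to 134658775) held 32.8, 51.0 and 49.7 CPM in controls and 9.29, 23.2 and 14.6 CPM with Dyrk1b. Dyrk1b 1 was the lowest library and control 1 the lowest control, and the log2 difference was -1.48 ± 0.36 (adjusted p = 0.0987).

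The set also held Prkag2, a regulatory subunit of the energy sensor AMPK, which held 39.9, 44.9 and 24.2 CPM in controls and 10.6, 13.2 and 14.6 CPM with Dyrk1b (chromosome 5, 25269086 to 25269479). The groups were apart with a log2 difference of -1.48 ± 0.40 (adjusted p = 0.112). Slc16a7, a carrier of lactate and pyruvate, had 49.9 ± 6.26 CPM against 20.5 ± 4.08 CPM, and Osbpl5, a lipid transfer protein related to Osbpl8, had 65.9 ± 6.54 CPM against 32.6 ± 5.45 CPM. The 2 lipid transfer genes thus lay on opposite sides. Cmip held 90.3, 107 and 86.0 CPM in controls and 30.5, 47.4 and 70.6 CPM with Dyrk1b, and Fbxo36, an F-box protein, had 60.3 ± 16.9 CPM against 29.4 ± 3.58 CPM. Groups were apart in both, at adjusted p of 0.126 and 0.132.

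**Figure D2:**
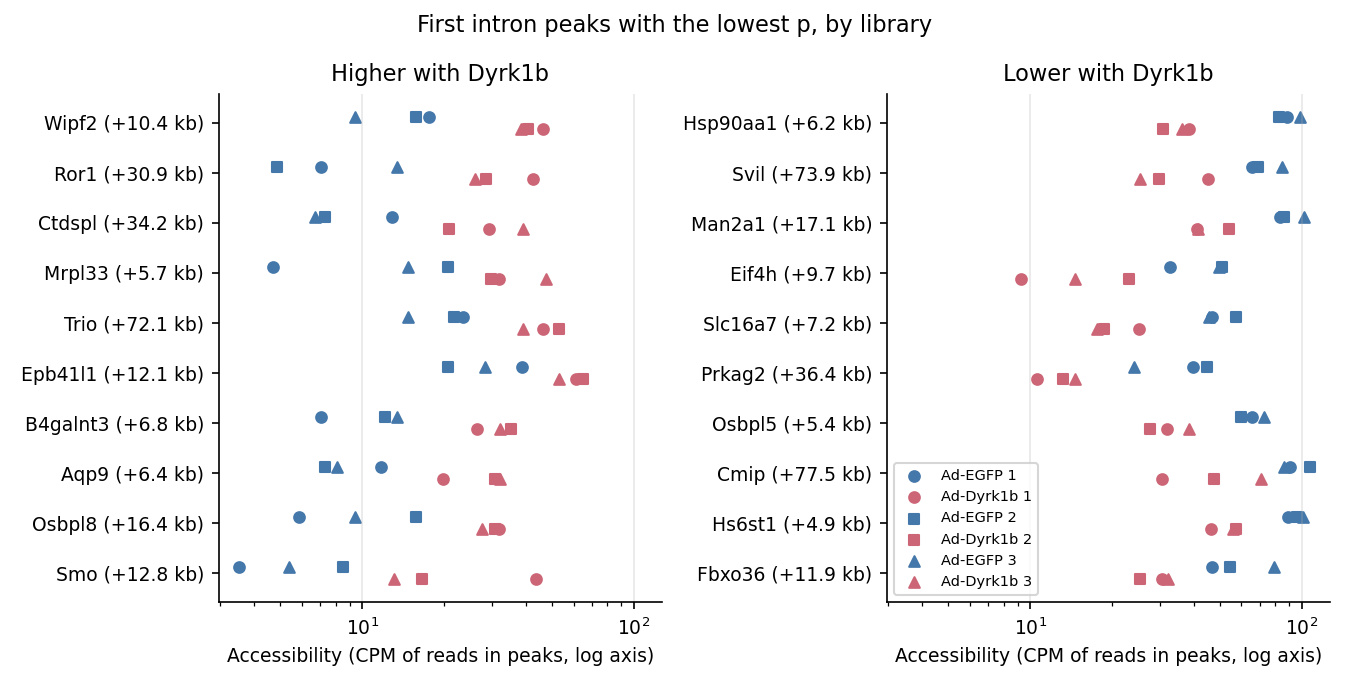
Accessibility in CPM of reads in peaks (log axis) of the 10 first intron peaks with the lowest p in each direction, each point 1 library, with the distance from the start beside the gene. Blue Ad-EGFP and red Ad-Dyrk1b libraries do not overlap at any of the 20 peaks, which were picked for that, and Hsp90aa1 alone passed the test.

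The sign of the difference followed the level of the peak. First intron peaks in the lowest quintile of all tested peaks by mean CPM (875 peaks) had a median log2 difference of 0.35, and from the next quintile to the highest the medians were 0.18, 0.03, -0.11 and -0.17 (871, 749, 563 and 354 peaks). Promoter and 5′ UTR peaks went from 0.31 in the lowest quintile to -0.15 in the highest. Of the first intron peaks 25.6% were in the lowest quintile and 10.4% in the highest, and of the promoter and 5′ UTR peaks 8.13% and 36.1%. With loess offsets, which let the normalization depend on the level, the 5 medians of first intron peaks were 0.09, 0.05, 0.01, -0.04 and -0.03. The median over all first intron peaks was then 0.02.

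**Figure D3:**
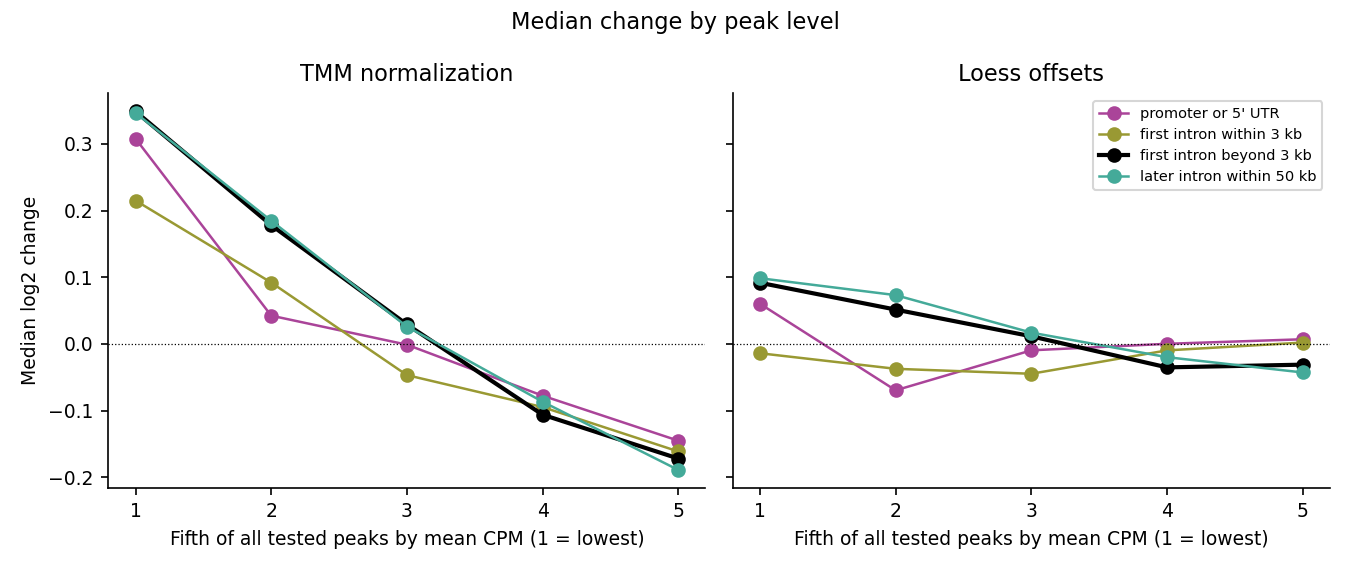
Median log2 difference by quintile of mean CPM over all tested peaks, for 4 peak classes, with TMM normalization (left) and loess offsets (right). With TMM first intron peaks beyond 3 kb run from 0.35 to -0.17 and other classes run the same way; with loess offsets they run from 0.09 to -0.03.

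Intronic peaks and the start of the same gene shared a sign about as often as not. For 879 genes with at least 1 tested first intron peak, a tested peak was centred within 1 kb of the start. The intronic median per gene and the start peak had the same sign in 433 of them (49.3%), with Pearson r = 0.0137 and Spearman rho = 0.0120 across genes, which are not independent replicates and share libraries and depth. The medians over these genes were 0.06 for the intronic peaks and -0.02 for the start peaks, and levels were 30.8 and 51.7 CPM. Of 94 first intron peaks with unadjusted p under 0.05 and higher values, the start peak had the same sign for 50, with a median of 0.03. Of 89 with lower values it had the same sign for 56, with a median of -0.19. Among all tested promoter and 5′ UTR peaks, a set not identical to the start peaks, 42.0% were positive. Whether the 2 counts depart from the signs of start peaks in general was not tested.

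Single genes show both patterns. In the genes whose start regions are printed above, the start peak stood at -0.29 ± 0.30 for Wipf2, -0.31 ± 0.30 for Eif4h and 0.19 ± 0.26 for Ror1. Each was about its SE or less from 0, beside intronic differences of 1.52, -1.48 and 1.92. Whether these start peaks cover the printed bases was not tested. Start peaks of Trio (-0.28 ± 0.21), Osbpl8 (-0.23 ± 0.24) and Svil (0.23 ± 0.27) had the sign opposite to that of the first intron peak with the lowest p. In Gbe1, the glycogen branching enzyme, that peak and the start peak were both lower, at -0.91 ± 0.28 and -0.76 ± 0.21. Slc16a7 (-1.30 ± 0.32 and -0.63 ± 0.26) and Srebf1, the factor that drives lipogenic genes (-0.61 ± 0.25 and -0.97 ± 0.26), also had the same sign at both. Tsc1, an inhibitor of mTORC1, had 0.54 ± 0.32 at its first intron peak and -0.77 ± 0.27 at the start.

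**Figure D4:**
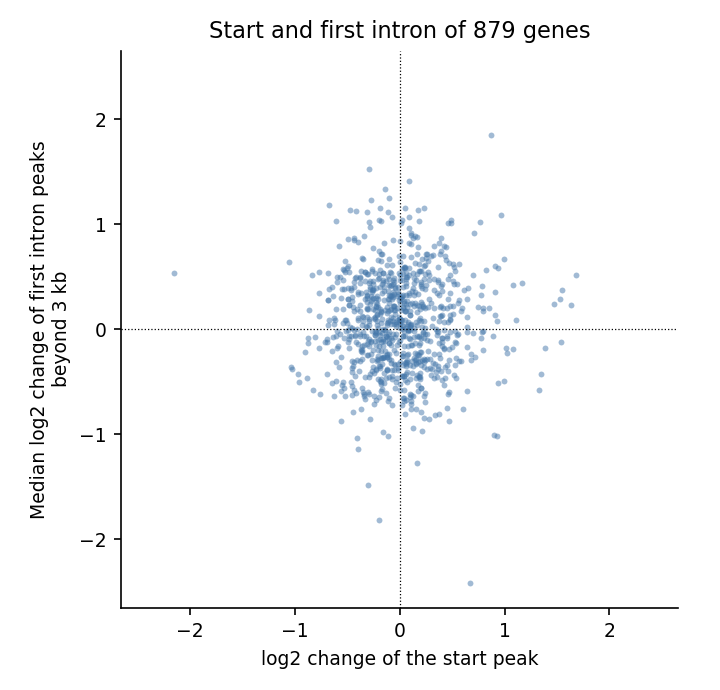
Median log2 difference of the first intron peaks beyond 3 kb (vertical) against that of the start peak (horizontal), 1 point per gene, 879 genes. Points lie on every side of 0, and the signs match in 433 genes.

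Most genes with many first intron peaks held both signs. In Rora, a nuclear receptor that drives clock genes, 11 first intron peaks between 23.4 and 528 kb from the start ranged from -0.67 to 0.67, with 6 positive and 5 negative. In Arhgap26, a GTPase-activating protein, 9 peaks ranged from -0.84 to 0.47, with 2 positive and 7 negative, and in Gse1, a chromatin-associated protein, 9 ranged from -0.48 to 0.87, with 6 positive. None of these 29 peaks was called. The Arhgap26 distances were measured from more than 1 listed start. Over the 53 genes with at least 5 tested peaks, the SD of log2 differences within a gene had a median of 0.44, against 0.52 over all first intron peaks, while the median SE of a single peak was 0.34.

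In 2 of these 53 genes, chosen after their values were seen, all peaks had 1 sign. Lpin1, a phosphatidate phosphatase of triglyceride synthesis that also acts as a coactivator, had 5 negative peaks at 12.6 to 28.2 kb. The farthest, chromosome 12, 16668357 to 16669200, held 125, 81.4 and 126 CPM in controls and 49.1, 71.7 and 72.2 CPM with Dyrk1b. The groups did not overlap there, with a log2 difference of -0.77 ± 0.23 (adjusted p = 0.145), and the other 4 lay between -0.39 and -0.15. Agap1, a GTPase-activating protein of Arf proteins, had 5 positive peaks, from 0.005 to 0.67. The Agap1 peak at 0.005 had 71.1 CPM in controls and 70.8 CPM with Dyrk1b. The other Agap1 peaks had 16.2 to 25.6 CPM in controls and 21.6 to 39.8 CPM with Dyrk1b. The Lpin1 peaks had 35.7 to 111 CPM and 32.6 to 67.0 CPM. The part of peak level in these signs was not tested. Leaving out 1 library turned the sign of 1 Agap1 peak and of a pair of Lpin1 peaks.

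**Figure D5:**
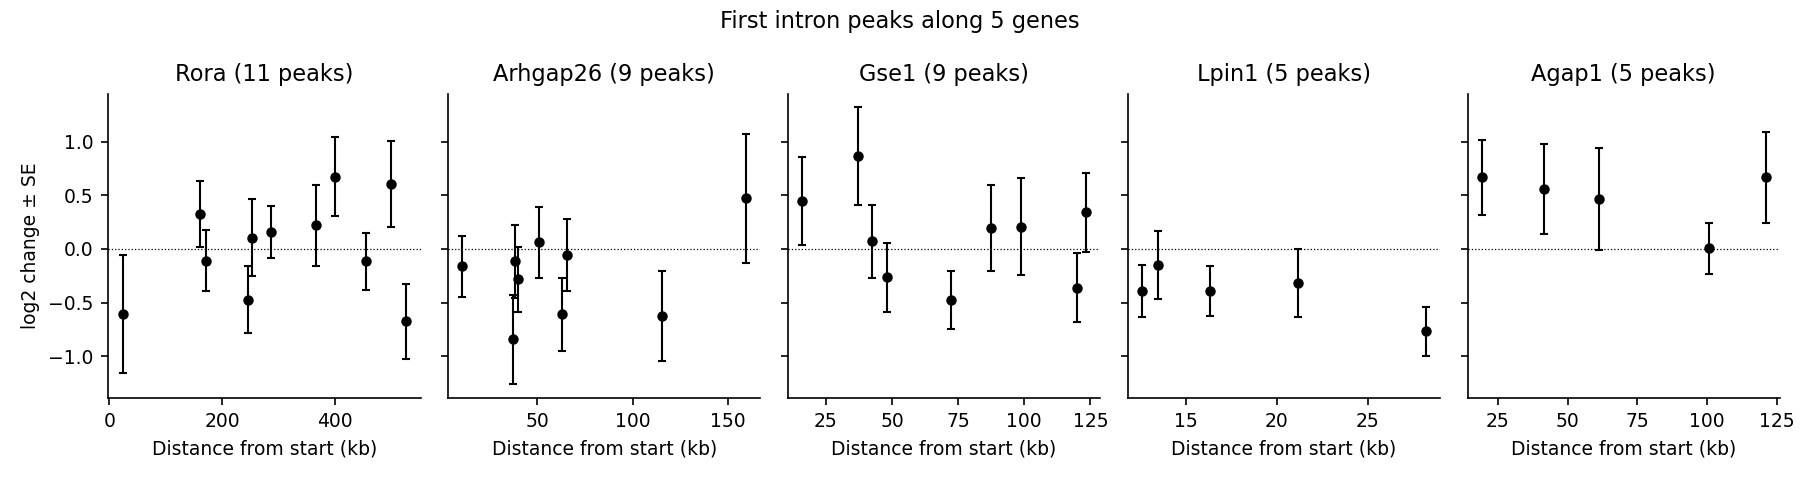
Log2 difference with its SE (bars) of each first intron peak, by distance from the assigned start, in the 3 genes with the most such peaks and in the 2 genes with 5 or more peaks of 1 sign. Rora, Arhgap26 and Gse1 hold both signs, Lpin1 only negative and Agap1 only positive values.

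Gene lists were read beside all tested peaks, of which 6.44% were higher and 7.72% lower at an unadjusted p under 0.05 and whose median was 0.005 with TMM, 0.02 with loess offsets and 0.17 with the RPKM library totals as scale. Medians of lists follow with TMM and, in brackets, with loess offsets and then the RPKM totals. Beside each count at p under 0.05 stands the number that the shares of all peaks would give. Values of a gene are those of its peak with the lowest p. Hsp90aa1 was the only call in any list. The glucose genes had mostly negative values. Of 43 genes of gluconeogenesis, glycolysis and glycogen, 10 had such peaks, 16 in all, with a median of -0.24 (-0.24, -0.10) and 4 positive. At p under 0.05, 0 were higher and 3 lower, against 1.0 and 1.2. Gbe1 (chromosome 16, 70148657 to 70149182) held 70.3, 48.6 and 59.2 CPM in controls and 34.5, 26.5 and 33.8 CPM with Dyrk1b, and Pfkfb3, which makes the activator of glycolysis fructose 2,6-bisphosphate, held 99.7, 86.2 and 82.0 CPM and 55.7, 52.9 and 53.0 CPM. The groups were apart in both, with log2 differences of -0.91 ± 0.28 (adjusted p = 0.167) and -0.73 ± 0.23 (0.175). Mlxipl, the glucose-sensing factor ChREBP, had -0.72 ± 0.31. In the same libraries 1 of the 7 hepatocyte marker peaks had a positive log2 difference, and what part cell mixture had in these values was not tested.

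Lipid genes had values on both sides of 0. The list for lipid synthesis and storage had 31 peaks in 14 of 51 genes, a median of -0.05 (0.008, 0.08), and 3 higher and 3 lower at p under 0.05, against 2.0 and 2.4. Of 7 peaks in Lipc, the hepatic lipase, 5 were positive and 2 negative, and the one with the lowest p had 87.2 ± 16.2 CPM against 53.2 ± 6.38 CPM and a log2 difference of -0.70 ± 0.24. Srebf1 held 68.0, 69.2 and 80.7 CPM in controls and 38.5, 54.0 and 49.1 CPM with Dyrk1b, groups apart. Cidea, a lipid droplet protein, held 10.6, 4.86 and 21.5 CPM and 27.9, 27.6 and 35.3 CPM and had 1.32 ± 0.45 (adjusted p = 0.196), on the other side. Fatty acid oxidation had 4 peaks in 3 of 25 genes, all with positive values, with a median of 0.37 (0.19, 0.58) and 0 with p under 0.05 in either direction, against 0.3 and 0.3. Their median level, 22.2 CPM, is in the lowest quintile, where all tested peaks have a median log2 difference of 0.35. They included Ehhadh, of peroxisomal oxidation (0.82 ± 0.46), Eci2, an enoyl isomerase (0.49 ± 0.46), and Cpt1a, which gates entry of fatty acids into mitochondria (0.06 ± 0.26). The sign at Cpt1a turned without Dyrk1b 1 (-0.07).

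Insulin and mTOR signalling had 21 peaks in 11 of 40 genes, a median of 0.17 (-0.03, 0.28), and 0 higher and 1 lower at p under 0.05, against 1.4 and 1.6. The lower one was in Ptpn1, the phosphatase that switches off the insulin receptor, at 60.2 ± 8.80 CPM against 39.9 ± 10.4 CPM (-0.59 ± 0.27). Deptor, an inhibitor of mTOR, had -0.50 ± 0.31 and the kinase Sik3 0.58 ± 0.39, the latter with 3 positive peaks and 1 negative. None of these passed the adjusted test.

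Transcription factors of hepatocytes had 15 peaks in 9 of 32 genes, with a median of 0.26 (0.16, 0.39), 8 positive, and 3 higher and 2 lower at p under 0.05, against 1.0 and 1.2. Onecut2, with 1 positive and 2 negative peaks, held 52.8, 72.9 and 59.2 CPM in controls and 31.8, 32.0 and 41.5 CPM with Dyrk1b and had -0.79 ± 0.27 (adjusted p = 0.200). Tef, a bZIP factor that is also on the clock list, held 123, 119 and 143 CPM and 94.2, 92.6 and 87.5 CPM and had -0.49 ± 0.21. In both, all controls were above all Dyrk1b libraries. The nuclear factor I genes lay on the other side, Nfix at 0.73 ± 0.34 and Nfib at 0.96 ± 0.47, with groups apart in both. With loess offsets they had 0.66 and 0.69. Nuclear receptors had 26 peaks in 11 of 40 genes, a median of -0.12 (-0.06, 0.05), and 0 higher and 2 lower, against 1.7 and 2.0, and 11 of the 26 lie in Rora. Nr1i2, the xenobiotic receptor PXR, held 49.2, 47.4 and 55.1 CPM in controls and 29.2, 37.5 and 26.9 CPM with Dyrk1b, groups apart, and had -0.70 ± 0.29 (adjusted p = 0.277). Nr2c2 had 1.01 ± 0.52 (0.73 with loess offsets), with overlapping groups. The clock list had 16 peaks in 6 of 24 genes, of which the same 11 are those of Rora, a median of -0.11 (-0.19, 0.05), and 0 higher and 2 lower, against 1.0 and 1.2. Csnk1d, a kinase that marks PER proteins for breakdown, had -0.73 ± 0.31 and Per2 -0.51 ± 0.26.

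The list for Hippo, YAP and Wbp2 signalling had 16 peaks in 7 of 36 genes, of which 15 were tested, with a median of 0.09 (0.09, 0.31), and 2 higher and 4 lower at p under 0.05, against 1.0 and 1.2. Wwc1, also called KIBRA, a scaffold that activates the Hippo kinases, had 2 positive and 4 negative peaks, of which the one with the lowest p held 48.1, 58.3 and 90.1 CPM in controls and 27.9, 34.2 and 35.3 CPM with Dyrk1b (chromosome 11, 35842051 to 35842788). All controls were above all Dyrk1b libraries, with a log2 difference of -0.99 ± 0.28 (adjusted p = 0.132). The single peak of its relative Wwc2 was on the other side, with 21.1, 23.1 and 30.9 CPM in controls and 66.4, 28.7 and 58.4 CPM with Dyrk1b and 1.03 ± 0.32 (0.167). Dyrk1b 2 fell within the controls there. Vgll4, which competes with YAP for TEAD factors, had -0.56 ± 0.24, and Stk4, a Hippo kinase, -0.41 ± 0.31. The Stk4 peak lay 12.5 bp from another listed start of Stk4.

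TGF-beta, Wnt and Notch signalling had 27 peaks in 13 of 51 genes, a median of 0.06 (0.07, 0.23), and 5 higher and 2 lower at p under 0.05, against 1.7 and 2.1. Znrf3, the ubiquitin ligase that removes Wnt receptors, with 3 positive peaks and 1 negative, held 27.0, 20.7 and 18.8 CPM in controls and 46.4, 36.4 and 38.4 CPM with Dyrk1b, groups apart (0.85 ± 0.34, adjusted p = 0.259). The receptor gene Notch2 had 0.79 ± 0.34 and Smad4, the shared partner of the TGF-beta SMADs, 0.89 ± 0.39, while the Wnt co-receptor gene Lrp5 had -0.47 ± 0.21. Their start peaks had the opposite sign for Notch2 (-0.33 ± 0.26), Smad4 (-0.34 ± 0.23) and Lrp5 (0.43 ± 0.30) and the same sign for Znrf3 (0.09 ± 0.25).

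Chromatin regulators had 32 peaks in 20 of 62 genes, a median of 0.25 (0.19, 0.43), 21 positive, and 3 higher and 2 lower at p under 0.05, against 2.1 and 2.5. Med13l, of the Mediator kinase module, held 16.4, 23.1 and 17.5 CPM in controls and 39.8, 51.8 and 28.4 CPM with Dyrk1b, groups apart (1.05 ± 0.36, adjusted p = 0.196). Kdm6b, which removes methyl groups from histone H3 lysine 27, had -0.63 ± 0.25. Auts2, of a Polycomb complex and with 3 positive and 2 negative peaks, had 1.32 ± 0.56 (1.02 with loess offsets). Arid1a, of the BAF remodelling complex, had -0.69 ± 0.33. The last held 51.6, 52.2 and 35.0 CPM in controls and 7.96, 41.9 and 33.8 CPM with Dyrk1b. Dyrk1b 1 alone was far below the other libraries, and without it the log2 difference was -0.30.

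Actin, adhesion and small GTPase signalling was the list with most peaks, 84 in 38 of 63 genes, with a median of -0.11 (-0.12, 0.08), 34 positive, and 6 higher and 9 lower at p under 0.05, against 5.4 and 6.5. Besides Svil and Wipf2 it was led by Actn4, which cross-links actin, at 43.4 ± 10.2 CPM against 22.3 ± 2.09 CPM (-0.95 ± 0.33), where the groups were apart and the gene's other peak stood at 0.22. Heat shock genes and chaperones had 6 peaks in 4 of 27 genes, 1 positive, with a median of -0.11 (-0.06, 0.07), and 0 higher and 1 lower at p under 0.05, against 0.4 and 0.5. Apart from Hsp90aa1 they gave -0.26 ± 0.34 for Dnajb4, -0.16 ± 0.23 for Fkbp5, a co-chaperone of steroid receptors (0.03 with the RPKM totals), whose 3 peaks reached 0.07, and -0.04 ± 0.27 for Hspa8, the constitutive HSP70 (0.05 with loess offsets, 0.11 with the RPKM totals). The groups overlapped in these 3.

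Cell type markers were scarce in first introns beyond 3 kb. They came to 1 peak each for hepatocytes in Hnf4a (-0.43 ± 0.26), which lies 879 bp from a listed start of another gene, for endothelial cells in Pecam1 (-0.07 ± 0.29, 0.12 with the RPKM totals) and for lymphocytes in Themis (0.26 ± 0.44). None of them had an unadjusted p under 0.05, and the marker lists of macrophages, stellate cells and cholangiocytes had none. The sign at Pecam1 turned without control 3 (0.20).

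The kinds of genes that held such peaks were described from the deposited annotation, with no test. Of 869 genes with a first intron peak beyond 3 kb and a KEGG class, 35.2% were in signal transduction. The share was 24.9% of all 4574 genes with any assigned peak and a class, which include the 869. It was 22.5% of the 3705 that had no first intron peak beyond 3 kb. The shares that follow are set against the 4574. Genetic information processing, which covers transcription, translation and protein turnover, held 8.52% against 18.7%, and translation alone 1.96% against 6.49%. Cell community, which includes junctions and adhesion, held 13.1% against 8.20%, and lipid metabolism 6.90% against 5.88%. These are shares of genes by annotation and use no read count.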

How the data were processed

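Chromatin accessibility was measured in 3 control and 3 Dyrk1b liver samples. The authors deposited whole-number read counts per peak and library, and RPKM values made from them, per the file headers. The log2 ratio of group means, the p-value and the FDR of each peak are also the authors', per the file headers. The submitters' processing notes name Bowtie2, DiffBind, ChIPseeker and the build mm10, and the notes' build did not match the deposited gene positions, so coordinates are printed as deposited with no build named. Peak calling, duplicate removal and any shift of reads for the transposase were not given in the sources used here and could move the counts. The table may hold part of a larger peak set.

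Peaks were selected by annotation and distance. The rule, the gene lists and the tests were chosen with earlier results of these data known. Counts were tested with edgeR 4.0.16 (R 4.3.3) after filterByExpr, which kept 22051 of 22412 peaks, with TMM normalization and a quasi-likelihood test with no covariate, and p was adjusted by Benjamini-Hochberg over all 22051. A peak with an adjusted p under 0.05 was called. Changes are log2, Dyrk1b over control. The common biological coefficient of variation was 19.9%. Replicate numbers did not pair the samples. No 2 libraries agreed within sampling noise. SD is over the samples of a group. The SE of a log2 difference was derived from the edgeR quasi-likelihood test and is not a standard error over samples.

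Peaks named were the called ones, the 10 per direction with the lowest p whose groups did not overlap, the 6 strongest, the 3 genes with most peaks, up to 4 genes per list, some of which are not reported here, and those nearest 3 kb, predicted genes left out. Lpin1 and Agap1 as genes of 1 sign fall outside this. Alternatives were DESeq2 1.42.0, limma-trend (limma 3.58.1, prior count 2), other scalings, no filter, the replicate number as a block, distance limits of 5 and 10 kb, no gene match and each library left out. For the share of reads, leaving out the strongest peak of the table was added after seeing the data.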

Additional observations from a re-analysis of the deposited data

How the results depend on the processing

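The count of first intron peaks called higher was 0 under every alternative run. The count called lower, 1 with edgeR, was 0 with the RPKM library totals as scale, 3 with DESeq2 and 0 with a distance limit of 10 kb, where Hsp90aa1 falls outside. It ranged from 0 to 2 when 1 library was left out. The median log2 difference, 0.06, was 0.0937 with library size only (all peaks 0.0407), 0.0222 with loess offsets and 0.22 with the RPKM totals (all peaks 0.17), and 0.0339 to 0.0655 with 1 library left out. The difference in the share of reads, 0.231 percentage points, ranged from 0.0632 to 0.403 with 1 library left out and was 0.310 without the strongest peak of the table. The cause of these shifts was not tested.

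The 65 named peaks of lowest p and of the lists were each read under 13 alternatives. Of these values, 824 kept their direction and were not seen to cross the threshold, 3 passed it and 4, all at Hsp90aa1, no longer did. The 824 include DESeq2 values with no adjusted p, such as those of Wipf2, Ror1 and Trio, which show direction only. Signs turned at 4 of the 65 peaks, none of them called. Cpt1a gave -0.0726 without Dyrk1b 1. Fkbp5 gave 0.0336 with the RPKM totals. Hspa8 gave 0.0486 with loess offsets, 0.11 with the RPKM totals, 0.00687 with the replicate block, 0.0451 with limma-trend, and -0.34 to 0.24 with 1 library left out. Pecam1 gave 0.000622 with loess offsets, 0.12 with the RPKM totals, and -0.37 to 0.20 with 1 library left out. Of the peaks nearest 3 kb, AI661453 turned with the RPKM totals (0.0163) and with 1 library left out (up to 0.0876), and Gm17268 with 1 library left out (down to -0.0135). Of the strongest peaks, Sfi1, Por and Cldn34d turned under at least 1 of these settings.

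The replicate numbers are only names, since same-numbered libraries did not deviate together (r = -0.00979, -0.0144 and 0.0073). With the replicate block edgeR called 0 higher and 1 lower, with a median log2 difference of 0.0545. Reads in peaks, 762633 to 1267934 per library, limit what can be seen at weak peaks, and 59 of the 3480 are listed with 1 read in some library.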
